A study of Sus scrofa with 6 samples.

Results

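FBXO32 and FKBP5 were followed in longissimus dorsi, a back muscle, from 6 boars slaughtered at 150 days. The control breed was Large White (3 boars) and the other breed Northeastern Indigenous (3 boars), fed and housed alike per the labels, with 1 Affymetrix Porcine Genome Array per animal. The genes were taken as every probe set whose platform symbol is exactly FBXO32 or FKBP5, which gave 2 of 6765 named genes and 4 probe sets, 2 for each gene, of 23999 that are not controls. Both genes were chosen with their difference between the breeds known, so their own breed differences are given as a description, with no test.

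FBXO32 encodes a muscle F-box protein, also called MAFbx. F-box proteins are the part of the SCF ubiquitin ligase that picks the substrate, and the SCF core of SKP1, CUL1 and RBX1 brings in the ubiquitin-conjugating enzyme that marks that substrate for the proteasome. FBXO32 transcription rises in wasting muscle of rodents, where FOXO factors switch it on and insulin and IGF signalling through AKT holds those factors back. FKBP5 encodes a co-chaperone of HSP90 that binds the glucocorticoid receptor and lowers its affinity for hormone. It is itself induced by the receptor, and glucocorticoids also raise FBXO32 in muscle.

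Marker genes of muscle and fat differed among the Large White arrays. Over 25 sarcomere genes the mean log2 intensity was 14.46 on Large White replicate 2 and 14.42 to 14.60 on the Northeastern Indigenous arrays, but 13.99 on Large White replicate 3 and 10.70 on replicate 1. Over 8 adipocyte genes it was 12.35 on the first and 11.31 on the third Large White array, but 8.07 on the second and 7.59 to 8.44 in Northeastern Indigenous boars. All 8 adipocyte genes and all 15 leukocyte genes were dimmer on average in Northeastern Indigenous boars, and no marker was listed at 0 on any array. Values are therefore also given for Large White replicate 2 by itself, the Large White array whose sarcomere and adipocyte levels lay within the range of the other breed. In a whole-muscle sample, fewer cells of a type and less RNA per cell cannot be told apart.

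FBXO32 was bright in Northeastern Indigenous muscle and spread widely in Large White muscle. Its brighter probe set had deposited intensities of 278, 1604 and 897 on Large White replicates 1, 2 and 3, and of 4551, 2111 and 9116 on Northeastern Indigenous replicates 1, 2 and 3. After quantile normalization, which gives every array the same distribution of values, these were log2 intensities of 7.91, 10.69 and 9.66 against 12.08, 11.07 and 13.03. Every Northeastern Indigenous array lay above every Large White array, though the lowest of the first and the highest of the second were only 0.38 apart. The mean was 12.06 ± 0.98 in Northeastern Indigenous boars and 9.42 ± 1.40 in Large White boars (SD, n = 3 per breed). The difference, Northeastern Indigenous minus Large White, was 2.64 ± 0.77 log2 units (SE), or 6.25-fold. The Large White arrays spanned 2.78 log2 units among themselves, more than the difference between the breed means. With Large White replicates 1 and 3 left out and the other 4 arrays normalized anew, the difference was 1.46 ± 0.69 (SE). That SE rests on the spread of the Northeastern Indigenous arrays, since the lone Large White array is assumed to vary as they do.

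The other FBXO32 probe set gave nearly the same profile at a lower brightness. It read 6.82, 9.51 and 8.38 on Large White replicates 1 to 3 and 10.89, 9.70 and 11.95 on Northeastern Indigenous replicates 1 to 3, with a difference of 2.61 ± 0.80 (SE). The gap between the lowest Northeastern Indigenous and the highest Large White array was 0.19. Once each probe set was centred on its own mean, the FBXO32 probe sets differed by 0.10 log2 units (root mean square over 6 arrays) and by at most 0.17 on any array. The spread of FBXO32 among the boars was thus repeated by both probe sets.

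FKBP5 was even in Large White muscle on its brighter probe set, where FBXO32 was spread widely. In Northeastern Indigenous muscle its arrays spanned 2.05 log2 units, about as much as the 1.96 of FBXO32. Its brighter probe set had deposited intensities of 765, 712 and 604 on Large White replicates 1, 2 and 3, and of 2391, 1146 and 5164 on Northeastern Indigenous replicates 1, 2 and 3. The log2 intensities were 9.42, 9.57 and 9.09 against 11.20, 10.23 and 12.28. Again every Northeastern Indigenous array lay above every Large White array, with 0.66 between the nearest. The means were 11.24 ± 1.02 and 9.36 ± 0.25 (SD, n = 3 per breed), a difference of 1.88 ± 0.51 (SE) or 3.68-fold. With Large White replicates 1 and 3 left out in the same way it was 1.75 ± 0.72, with the same limit on its SE.

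The dimmer FKBP5 probe set was dominated by 1 boar. It read 6.13, 5.19 and 6.09 on Large White replicates 1 to 3 and 6.74, 6.71 and 9.55 on Northeastern Indigenous replicates 1 to 3. The breeds did not overlap, but the Large White mean of 5.80 lay under 5.85, the mean log2 intensity below which probe sets were left out of the fit. Its difference was 1.86 ± 0.78 (SE), and 0.94 without Northeastern Indigenous replicate 3. Centred on their means, the FKBP5 probe sets differed by 0.65 (root mean square over 6 arrays) and by up to 0.90 on 1 array, far more than those of FBXO32.

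**Figure D1:**
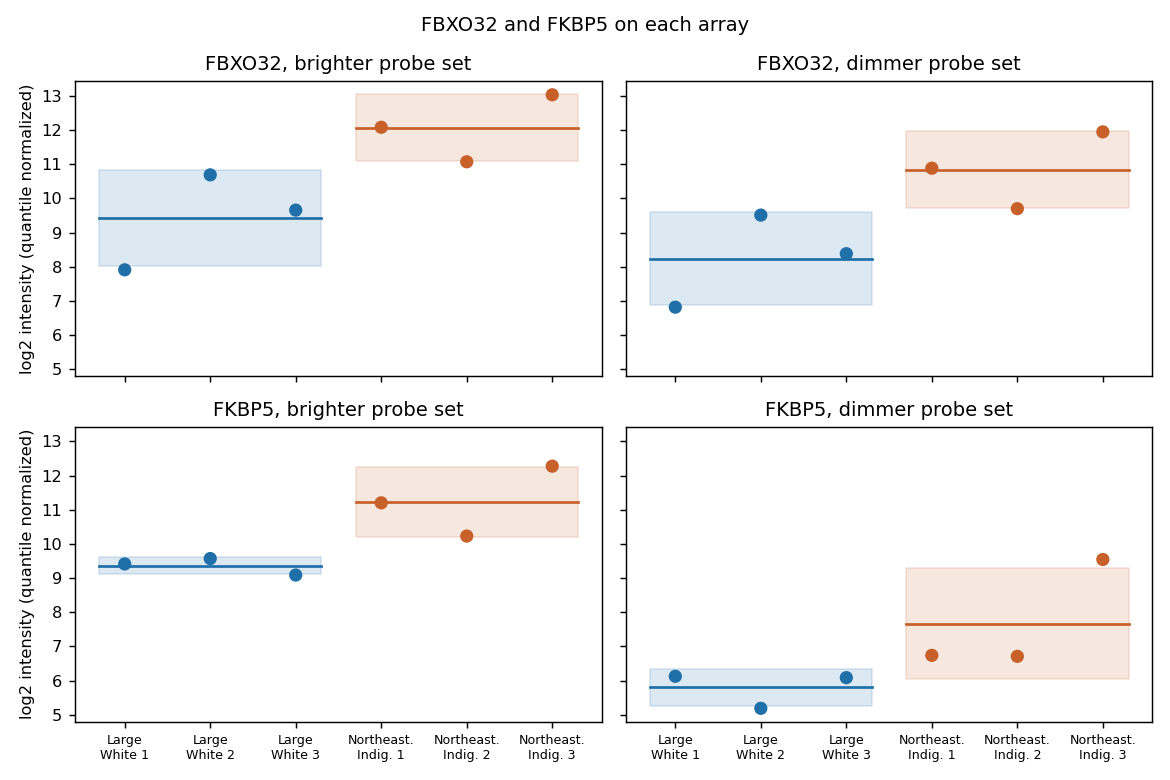
Quantile-normalized log2 intensity (vertical axis) of both FBXO32 and both FKBP5 probe sets on each of the 6 arrays (horizontal axis; Large White in blue, Northeastern Indigenous in orange). Lines are breed means and bands 1 SD (n = 3); FBXO32 spans 2.78 log2 units among the Large White arrays and FKBP5 0.48 in the brighter probe sets, and Northeastern Indigenous replicate 3 is the brightest array in all 4 panels.

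The breeds failed to overlap in 4 of 4 probe sets of these genes, all brighter in Northeastern Indigenous boars. Among all 14399 probe sets in the fit, 14.2% were separated in that direction. The genes had been picked on this contrast, so nothing is read from the count. All 4 probe sets passed the filter on low values. Across the whole table limma called 0 of 14399 probe sets at an adjusted p under 0.05 (0% of them), with 2706 at an unadjusted p under 0.05, or 18.8%.

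The Large White arrays parted the genes from each other. Measured from the Northeastern Indigenous mean, FBXO32 stood at -4.15, -1.37 and -2.40 on Large White replicates 1, 2 and 3. The sarcomere list of 25 genes stood at a median of -3.58, 0.02 and -0.40 on the same arrays, and the adipocyte list at 4.67, 0.05 and 3.46. FBXO32 was therefore lowest where the sarcomere genes were lowest and the adipocyte genes highest, and also below the other breed on replicate 2, where both lists were near 0. The brighter FKBP5 probe set stood at -1.82, -1.66 and -2.15, almost level across arrays on which the sarcomere list differed by several log2 units. The dimmer one stood at -1.54, -2.48 and -1.58, lowest on replicate 2. The leukocyte list stood at 2.65, 0.75 and 2.32 and the fibroblast list at 1.93, 0.48 and 1.92. The part of these cell types in the FBXO32 difference was not tested beyond these values and a covariate fit. With the adipocyte minus sarcomere mean of each array as a covariate, the FBXO32 difference was 1.24 ± 0.54 (SE) and that of FKBP5 1.76 ± 0.61 (SE).

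**Figure D2:**
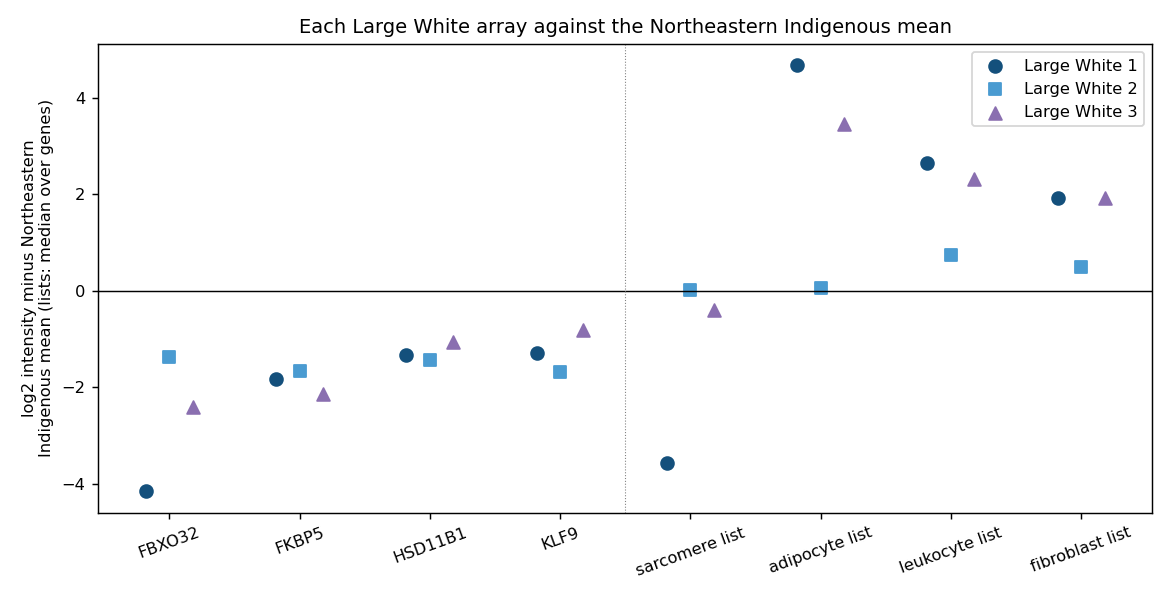
Log2 intensity of each Large White array minus the mean of the 3 Northeastern Indigenous arrays (vertical axis) for FBXO32, FKBP5, HSD11B1 and KLF9 and, right of the dotted line, the median over the genes of 4 marker lists. FBXO32 runs from -4.15 to -1.37 and FKBP5 from -2.15 to -1.66, while the sarcomere list runs from -3.58 to 0.02 and the adipocyte list from 0.05 to 4.67.

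Among the Northeastern Indigenous boars the same animal was brightest in both genes. Replicate 3 exceeded replicate 2 by 1.96 log2 units in FBXO32 and by 2.05 in FKBP5, with replicate 1 between them. This order uses no Large White array. Of the 23 other measured glucocorticoid-induced genes, 14 were brightest on replicate 3 among the Northeastern Indigenous arrays (60.9%, against 36.5% of all 5438 named genes), and 8 had both replicate 3 highest and replicate 2 lowest (34.8%, against 19.3% of all named genes). Sarcomere markers gave similar shares, with 15 of 25 brightest on replicate 3 (60%) and 28% in both orders, so the order was not particular to glucocorticoid-induced genes. The 8 glucocorticoid-induced genes were TSC22D3, PER1, KLF9, CEBPB, PDK4, NFKBIA, SESN1 and GLUL. PDK4, which shuts pyruvate out of the mitochondrial oxidation of glucose, read 9.39, 7.86 and 12.47 on Northeastern Indigenous replicates 1 to 3, and KLF9, a transcription factor induced by the receptor, read 11.89, 10.93 and 12.52. The median of the 23 genes was 0.28 higher on replicate 3 than on replicate 2, against -0.01 over all named genes. At the median the sarcomere markers were 0.10 higher on replicate 3 than on replicate 2. The other marker lists were lower there, by 1.05 (leukocyte), 2.38 (red blood cell), 0.57 (adipocyte), 0.68 (fibroblast) and 0.52 (endothelium) log2 units. Their part in this order was not tested.

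FBXO32 and FKBP5 nevertheless had different profiles over the 6 arrays. Their centred values differed by 0.89 (root mean square), and by as much as 1.95 on 1 array. By this measure FKBP5 was the 114th most similar of 5294 named genes to FBXO32, and FBXO32 the 709th most similar to FKBP5. Nearest to FBXO32 were CYP3A29 (0.43), DEFB1 (0.46), IYD (0.48), ACTR3B (0.48) and CPT1B (0.49). CPT1B, the muscle enzyme that passes long fatty acids into mitochondria, read 5.29, 7.87 and 6.67 on Large White replicates 1 to 3 and 8.90, 9.01 and 9.39 on the Northeastern Indigenous arrays. Nearest to FKBP5 were SAMD12 (0.34), GPR160 (0.38), ABCC6 (0.42), MRM3 (0.43) and UBXN2A (0.47). SAMD12 read 6.61, 6.55 and 6.56 on Large White replicates 1 to 3 and 8.22, 7.43 and 8.63 on the Northeastern Indigenous arrays, flat in the first breed and lowest on replicate 2 in the second, as FKBP5 was. All 10 genes were brighter on average in Northeastern Indigenous boars, which follows from choosing them for their likeness. On Large White replicates 1 to 3, IYD read 3.20, 6.13 and 5.50 and MRM3 5.40, 4.63 and 5.44, mostly under 5.85, the filter level. These genes thus passed the filter only through the breed where they were brighter.

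**Figure D3:**
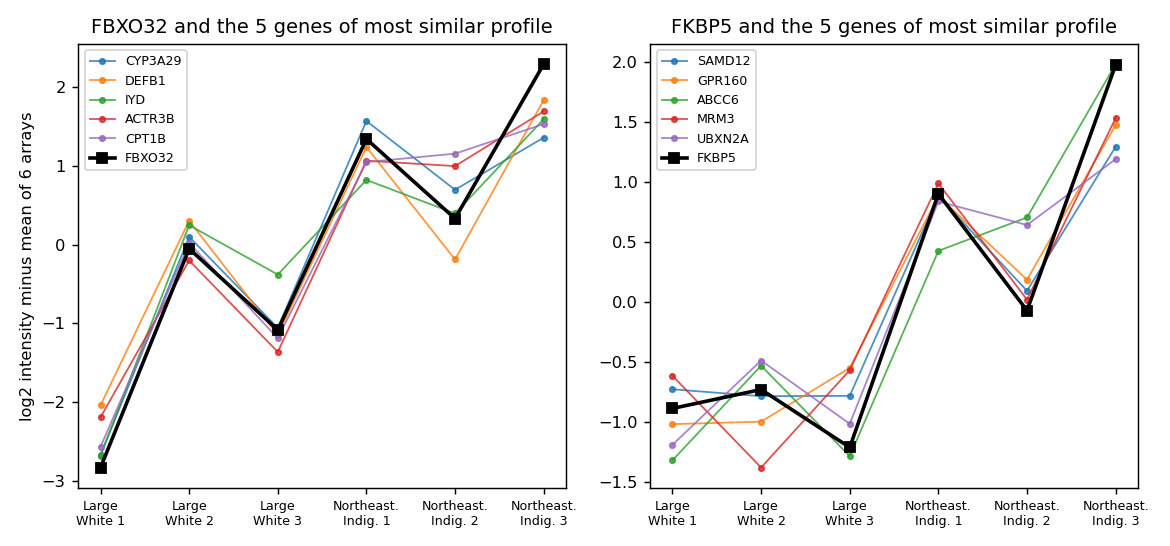
Log2 intensity minus each gene's own mean over 6 arrays (vertical axis) for FBXO32 (left, black) and FKBP5 (right, black) with the 5 named genes of smallest root mean square difference from each. Lines only join the values of 1 gene; the FBXO32 panel is lowest on Large White replicate 1, while the FKBP5 panel has no such dip, with FKBP5 at 9.09 to 9.57 on all 3 Large White arrays.

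The partners of FBXO32 in the ubiquitin system were next. None of 136 measured genes of 10 pathway lists passed limma's adjusted p under 0.05, and 30 had an unadjusted p under 0.05 (22.1%), near the 20.8% of all named genes. Without Large White replicate 2, the array with muscle and fat levels like those of the other breed, 43 of 135 pathway genes were called (31.9%), 26 higher and 17 lower, where 30.7% of all probe sets and 34.2% of all named genes were. FBXO32 and FKBP5, picked on this contrast, were not taken out of the pathway lists for these counts. Both are among the 30, so nothing is read from either count. Of 14 measured muscle ubiquitin ligases, conjugating enzymes and related genes, 11 had positive differences, with a median of 0.44, or 0.37 over the 13 without FBXO32. Over all 5438 named genes the median was 0.09, with 54.7% positive. FBXO32, picked on this contrast, had the most positive difference of the list. STUB1, a ligase that works with HSP70 and HSP90, differed by 1.22 ± 0.45 (SE; limma adjusted p = 0.241) and UBE2B, a ubiquitin-conjugating enzyme, by 0.50 ± 0.22 (SE; limma adjusted p = 0.267). STUB1 stood at -2.05, -0.26 and -1.35 on Large White replicates 1 to 3, so its difference lay mostly on the arrays of low sarcomere signal. The polyubiquitin gene UBB (-0.08) and the F-box gene FBXL5 (-0.07) had negative differences under quantile normalization and positive ones without it (0.30 and 0.03). The muscle ligases TRIM63, FBXO30 and FBXO40 were not analysed here, nor were SKP1 and RBX1.

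Measured genes of the SCF ligase and of cullin control had positive differences throughout. Of the SCF core of SKP1, CUL1 and RBX1, only CUL1 was measured. All 13 measured members were positive, with a median of 0.69, and 0 passed the adjusted threshold, with 3 at an unadjusted p under 0.05, all higher (9.42% of all named genes were, in that direction). NEDD8, the ubiquitin-like protein that activates cullins, differed by 0.91 ± 0.33 (SE; limma adjusted p = 0.238), COPS8, of the signalosome that removes it, by 0.87 ± 0.31 (SE; limma adjusted p = 0.238) and CUL1, the scaffold of the SCF ligase, by 0.30 ± 0.29 (SE). The list stood at -1.40, 0.07 and -0.55 on Large White replicates 1 to 3, close to the Northeastern Indigenous level on replicate 2 as the sarcomere list was. FBXO32 was 1.37 below that level on the same array.

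Among 16 measured F-box genes FBXO32, picked on this contrast, had the most positive difference. The 15 others had a median of 0.14, and 0 of the 16 passed. FBXW5 differed by 1.65 ± 0.59 (SE; limma adjusted p = 0.238), FBXW4 by 1.02 ± 0.40 (SE; limma adjusted p = 0.252), FBXO44 by -1.08 ± 0.50 (SE) and FBXO22 by -0.45 ± 0.45 (SE). The Large White mean of FBXW5 (5.39) and the Northeastern Indigenous mean of FBXO44 (5.47) lay under 5.85, the filter level. Each thus passed the filter only through the breed where it was brighter. FBXW4 was at 0.61 without Large White replicate 1, and FBXO44 at -0.61 without Northeastern Indigenous replicate 3. In 5 of 16 the breeds were separated with Northeastern Indigenous higher, against 15.9% of all named genes. FBXO32, picked on this contrast, is 1 of the 5, so nothing is read from that count. In 1 of 16 they were separated with Northeastern Indigenous lower, against 12.3%.

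The proteins that FBXO32 marks for degradation in mammalian cells, and the wider wasting programme, gave no shared direction. MYOD1, the myogenic factor, read 4.62, 9.76 and 7.31 on Large White replicates 1 to 3 and 8.31 to 8.51 in Northeastern Indigenous boars. Its difference of 1.19 ± 1.14 (SE) lay inside the Large White spread and was -0.12 without Large White replicate 1. The dimmer MYOD1 probe set, close to the filter level at a mean of 5.94, differed by 2.06. DES, which is also in the sarcomere list, differed by 2.52 ± 1.36 (SE) and PPP3CA, a calcineurin subunit, by 0.31 ± 0.29. Without Large White replicate 1 these were 0.80 and 0.01, and DES stood at 0.02 on Large White replicate 2. VIM differed by -1.40 ± 0.53 (SE). These 4 genes, 3 of them positive, had a median of 0.75. Of 17 measured genes that rise in muscle atrophy, 9 had positive and 8 negative differences, and their median of 0.08 became -0.02 without quantile normalization. SQSTM1, an autophagy receptor, differed by 0.58 ± 0.21 (SE; limma adjusted p = 0.240), MT3, a metallothionein, by 0.89 ± 0.34 (SE; limma adjusted p = 0.245), GABARAPL1, an autophagosome protein, by -0.94 ± 0.52 (SE) and GADD45A, a stress-induced growth arrest gene, by -0.67 ± 0.38 (SE). CDKN1A, a cell-cycle inhibitor, differed by -0.54 ± 0.35 (SE).

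Autophagy and FOXO control genes were likewise divided. Of 22 autophagy and lysosomal genes, 11 were positive and 11 negative, with a median of -0.03, which turned to 0.11 with arrays centred on their medians. The brightest probe set of ATG4A, a protease of the autophagosome pathway, differed by 1.02 ± 0.30 (SE; limma adjusted p = 0.224). It stood between -1.25 and -0.80 on the 3 Large White arrays, an even deficit like that of the brighter FKBP5 probe set. Other ATG4A probe sets that passed the filter differed by 0.98 and 0.06. MAP1LC3A differed by 1.72 ± 0.55 (SE; limma adjusted p = 0.227), LAMP2 by -0.97 ± 0.30 (SE; limma adjusted p = 0.226) and CTSB by -1.28 ± 0.46 (SE; limma adjusted p = 0.237). On Large White replicates 1 to 3, MAP1LC3A stood at -2.78, -0.49 and -1.89, LAMP2 at 1.41, 0.42 and 1.07, and CTSB at 2.10, 0.20 and 1.52. All were nearest the other breed on replicate 2. Dimmer LAMP2 probe sets differed by -0.06, -0.48 and -0.25. Of 14 FOXO, AKT and mTOR genes 6 were positive, with a median of -0.08, or 0.06 with arrays centred on their medians. FOXO1, a factor that switches on FBXO32 in rodents, was at 8.64 ± 0.18 in Northeastern Indigenous and 8.71 ± 0.18 in Large White boars (SD, n = 3 per breed), a difference of -0.07 ± 0.25 (SE). FOXO3 was below the filter on low values. PPARGC1A, the coactivator of mitochondrial genes, differed by 2.71 ± 1.09 (SE; limma adjusted p = 0.255), PRKAA2, the AMPK subunit of muscle, by 2.12 ± 1.12 (SE). Leaving out Large White replicate 1 took them to 1.40 and 0.68. On Large White replicate 2 they stood at -0.55 and -0.23. SESN1, a stress-induced inhibitor of mTOR signalling, differed by -0.47 ± 0.25 (SE). TSC2, which also inhibits mTOR signalling, differed by -0.37 ± 0.31 (SE).

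Genes induced by glucocorticoids had differences in both directions, more of them opposite to FKBP5 than with it. Of 24 measured, 8 had positive and 16 negative differences. The median was -0.17, or -0.19 over the 23 without FKBP5, against 0.09 over all named genes, and it was negative under the other scalings too (-0.23 and -0.09). None passed the adjusted threshold, and 2 higher and 3 lower had an unadjusted p under 0.05, where 9.42% and 11.4% of all named genes did. FKBP5, picked on this contrast, is 1 of the 2 higher, so nothing is read from that count. KLF9 read 10.48, 10.09 and 10.96 on Large White replicates 1 to 3 against 11.89, 10.93 and 12.52, a difference of 1.27 ± 0.44 (SE; limma adjusted p = 0.234), and the breeds overlapped by a narrow margin. Its second probe set differed by 0.45. The hormone-responsive genes TSC22D3 (-0.30 ± 0.27), PER1 (0.32 ± 0.48), DUSP1 (-0.26 ± 0.21), SGK1 (-0.15 ± 0.30) and CEBPD (-0.19 ± 0.56) had differences of at most 0.32 in size, and those of TSC22D3 and DUSP1 changed sign with arrays centred on their medians.

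Other members of the list differed more, in both directions. KLF15, a partner of the receptor in muscle, differed by 0.56 ± 0.42 (SE), PDK4 by 1.43 ± 1.15 and SLC2A4, the insulin-regulated glucose transporter, by 0.50 ± 0.29. PDK4 was at 0.14 without Northeastern Indigenous replicate 3, the boar also brightest in FBXO32 and FKBP5. RGS2, a regulator of G protein signalling, differed by -1.95 ± 0.72 (SE; limma adjusted p = 0.242) and CRISPLD2, a secreted protein, by -0.74 ± 0.26 (SE; limma adjusted p = 0.234). On Large White replicates 1 to 3 RGS2 exceeded the Northeastern Indigenous mean by 3.04, 0.35 and 2.47, moving with the adipocyte and leukocyte lists.

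HSD11B1, the enzyme that turns inactive cortisone into active cortisol inside cells, was about level on the Large White arrays, as the brighter FKBP5 probe set was. It read 9.46, 9.35 and 9.72 on Large White replicates 1 to 3 and 10.87, 11.08 and 10.41 on Northeastern Indigenous replicates 1 to 3. The breeds did not overlap. The difference was 1.27 ± 0.28 log2 units (SE; limma adjusted p = 0.224, so it did not pass). Measured from the Northeastern Indigenous mean it stood at -1.32, -1.44 and -1.07 on Large White replicates 1 to 3. Within the Northeastern Indigenous boars its order was the opposite of that of FKBP5, lowest on replicate 3 and highest on replicate 2. The receptor gene NR3C1 was at 8.06 ± 0.22 against 8.29 ± 0.14 (SD, n = 3 per breed), a difference of -0.23 ± 0.25 (SE), and its other probe sets that passed the filter gave -0.25 and 0.16.

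The chaperones around the receptor were mixed. Of 20 measured genes of the receptor machinery 12 were positive, with a median of 0.26, and 0 passed. FKBP4, the co-chaperone that competes with FKBP5 for HSP90 and favours the receptor's move to the nucleus, differed by 0.69 ± 0.36 (SE), and stood at -1.27, -0.02 and -0.79 on Large White replicates 1 to 3, level with the other breed on replicate 2. DNAJA1, an HSP40 co-chaperone, differed by -1.42 ± 0.49 (SE; limma adjusted p = 0.232) and NCOA2, a coactivator of the receptor, by -0.71 ± 0.29 (SE; limma adjusted p = 0.260). DNAJA1 read 11.10, 12.18 and 10.16 on Northeastern Indigenous replicates 1 to 3, lowest on the array where FKBP5 was highest, and its difference was -0.93 without that array. The dimmer DNAJA1 probe set, at a mean of 7.83, passed the filter and differed by 0.13, in the other direction. HSP90AA1 (-0.30 ± 0.14, SE) and HSP90AB1 (-0.21 ± 0.19, SE), the cytosolic HSP90 proteins, had negative differences that turned positive without quantile normalization (0.03 and 0.04), and probe sets of HSP90AA1 ran from -0.30 to 0.42.

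**Figure D4:**
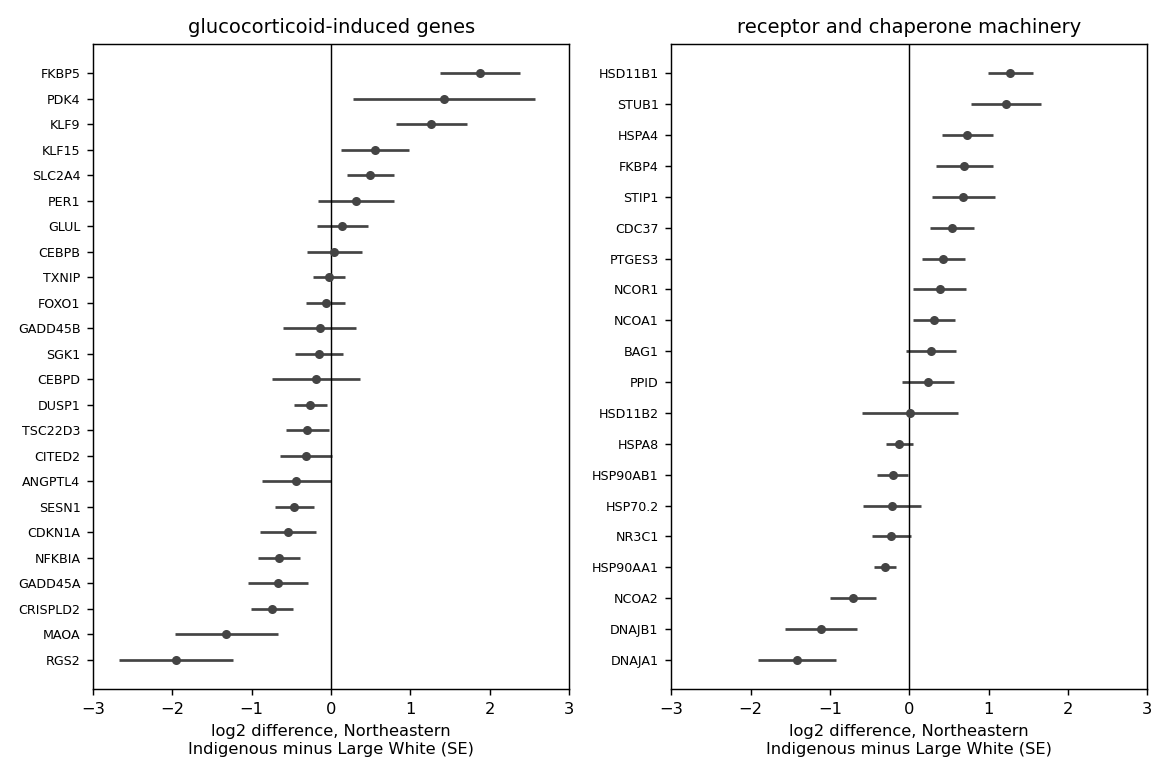
Log2 difference, Northeastern Indigenous minus Large White, with its SE (horizontal axis) for each measured glucocorticoid-induced gene (left) and each gene of the receptor and its chaperones (right), from the limma fit. Each gene is shown by its brightest probe set. FKBP5 has the most positive value on the left at 1.88, with RGS2 at -1.95 at the other end, and on the right HSD11B1 (1.27) and DNAJA1 (-1.42) are the ends.

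FKBP5 differed in sign from most of its own family, though some members were near 0. Of 13 measured FK506-binding proteins, 4 had positive and 9 negative differences, with a median of -0.12, or -0.22 without FKBP5, and 0 passed. Among the 9, FKBP1A (-0.12 ± 0.32), FKBP8 (-0.06 ± 0.33) and FKBP1B (-0.04 ± 0.48) were well inside their SEs. FKBP1A turned to 0.03 with arrays centred on their medians. FKBP5 was the single member whose breeds were separated with Northeastern Indigenous higher (15.9% of all named genes were). It was picked on this contrast, so nothing is read from its separation. In 4 members the breeds were separated with Northeastern Indigenous lower (12.3%). The 5 members with an unadjusted p under 0.05 and a negative difference, listed after their values were seen, were FKBP10, FKBP9, FKBP14, FKBP11 and FKBP7, where 11.4% of all named genes were past it in that direction. FKBP10, a collagen chaperone, differed by -2.40 ± 0.49 (SE; limma adjusted p = 0.224) and FKBP9 by -1.78 ± 0.46 (SE; limma adjusted p = 0.224). On Large White replicates 1 to 3, FKBP10 stood at 2.93, 1.57 and 2.70, and FKBP9 ran from 0.79 on replicate 2 to 2.57 on replicate 1. The fibroblast list was also lowest on replicate 2, at 0.48. FKBP3, a nuclear member, differed by 0.36 ± 0.35 (SE).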

How the data were processed

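Per array, the authors deposited a linear intensity for each probe set, made from biotin-labelled cRNA per the labels' protocols. The software is not given in the sources used here. Trimmed of 2% at each end, the mean intensity was between 499.796 and 499.859 on every array, so arrays had been scaled before deposit. The number of arrays, not depth, limits precision. The labels call the samples biological replicates.

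Of 24123 probe sets 124 controls were left out. Of the other 23999, 10069 had 1 platform symbol, 198 several and 13732 none; none was named from several. RefSeq's gene table (Sscrofa11.1) held the identifiers of 9961 and changed 0 symbols; no coordinates are printed. Values were taken as log2. Array medians spanned 0.35 (limit 0.2), so quantile normalization was applied. The filter dropped probe sets whose mean log2 intensity was under the 40th percentile (5.85) and left 14399, with 5438 named genes, each represented by its brightest probe set. Differences come from limma 3.58.1 in R 4.3.3 (lmFit, eBayes with an intensity trend, two-sided, 4 residual degrees of freedom, Benjamini-Hochberg adjusted p under 0.05 over all probe sets). The fit was run on simulated data with independent noise and SDs capped at their median. Such data lack the muscle and fat differences among these arrays, so the run does not test the fit under them.

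FBXO32, FKBP5, the 10 pathway lists (256 genes, 136 measured), the 6 marker lists and the alternatives were chosen with earlier results of these data known. Genes named are the members, 26 candidates (17 measured), up to 2 genes per direction and list by unadjusted p, and the 5 nearest profiles per member.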

Additional observations from a re-analysis of the deposited data

How the results depend on the processing

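The FBXO32 and FKBP5 differences stayed positive under every scaling, filter, offset, variance prior and left-out array tried. Leaving out 1 array gave 1.94 to 3.25 for FBXO32, lowest without Large White replicate 1, and 1.35 to 2.36 for FKBP5, lowest without Northeastern Indigenous replicate 3. The adipocyte minus sarcomere covariate, built in part from genes low on Large White replicate 1, took FBXO32 to 1.24. The replicate block called 0 probe sets. It could not move the differences from 2.64 and 1.88, since each replicate number held 1 array of each breed. Same-numbered arrays of the breeds did not deviate together (r = -0.02, -0.16 and -0.11 across probe sets). With 3 arrays per breed, and Large White deviations that follow muscle and fat levels, this cannot settle whether the number pairs them. The count of 0 probe sets became 1 with arrays centred on their medians and with the covariate, and 2706 at an unadjusted p under 0.05, where the 136 pathway genes gave 30, FBXO32 and FKBP5 among them. Leaving out 1 array gave 0 to 4425 probe sets and 0 to 43 pathway genes. Both highest counts came without Large White replicate 2, which sets Large White replicates 1 and 3 against the other breed. The cause of these shifts was not tested. The median over all named genes was 0.09, 0.02 without quantile normalization and 0.16 with median centring.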
